A study of Mus musculus with 12 samples.

Results

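The regulators of G-protein signalling (RGS proteins) were followed in splenic lymphocytes of the mouse. The rule named 8 genes of the family, Rgs1, Rgs2, Rgs3, Rgs10, Rgs14, Rgs16, Rgs18 and Rgs19, and 7 of them had a probe set that the probe annotation pairs with that symbol alone, out of 19937 genes in all. Rgs10 is not analysed here. Where a gene had more than 1 such probe set (only Rgs3 did), the one with the highest mean was taken. The list was drawn up with earlier results of these arrays known, so that no test on it is independent evidence, and Rgs2 was selected on its interaction (the activation difference of the labelled B cells minus that of the labelled T cells). Its values are therefore given as a description with no test, as is the interaction of every other member.

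RGS proteins end the signal of G-protein-coupled receptors. An active receptor loads the α subunit of a trimeric G-protein with GTP, and the RGS domain speeds the hydrolysis of that GTP, after which the α subunit returns to the βγ dimer. In lymphocytes the pathway is best known for chemokine and sphingosine-phosphate receptors, which couple to αi subunits and steer migration and retention in spleen and lymph node.

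The data are 12 Affymetrix arrays of total RNA, hybridised in sets of 3 for each of 4 groups, all of them cells of C57Bl/6 x FVB mice. Resting B cells (CD43-negative) and resting T cells (B220-negative) were taken from spleen on day 0, and the activated cells after 4 days in culture, the B cells with αCD40 and IL-4 and the T cells with αCD3, αCD28 and IL-2. The groups are called rB, aB, rT and aT below, after their labels (resting or activated, B or T). Values are log2 expression levels made by RMA, a method that brings all arrays to a common distribution. A level of 5.21 log2, the 95th percentile of 1015 olfactory receptor genes, serves as the background, and differences that reach below it are understated. The labels do not state whether replicate arrays come from different animals, so the p-values reflect only how these samples vary, which may be technical.

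The marker genes went against the labels. Over 11 T cell markers the mean level of an array was 9.88 to 9.98 log2 in the rB arrays and 9.48 to 9.61 in the aB arrays, against 5.22 to 5.62 and 5.48 to 6.29 in the rT and aT arrays. Over 10 B cell markers it was 6.93 to 8.31, 4.77 to 4.96, 8.95 to 9.31 and 11.15 to 11.28 log2 in the same order. Over 7 genes of dividing cells it was 6.08 to 6.55 in the rB arrays and 5.87 to 6.46 in the aT arrays, against 10.16 to 10.21 in the aB arrays and 9.63 to 9.75 in the rT arrays. Each direction below is therefore a direction between labelled groups, and what accounts for the mismatch was not tested.

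**Figure D1:**
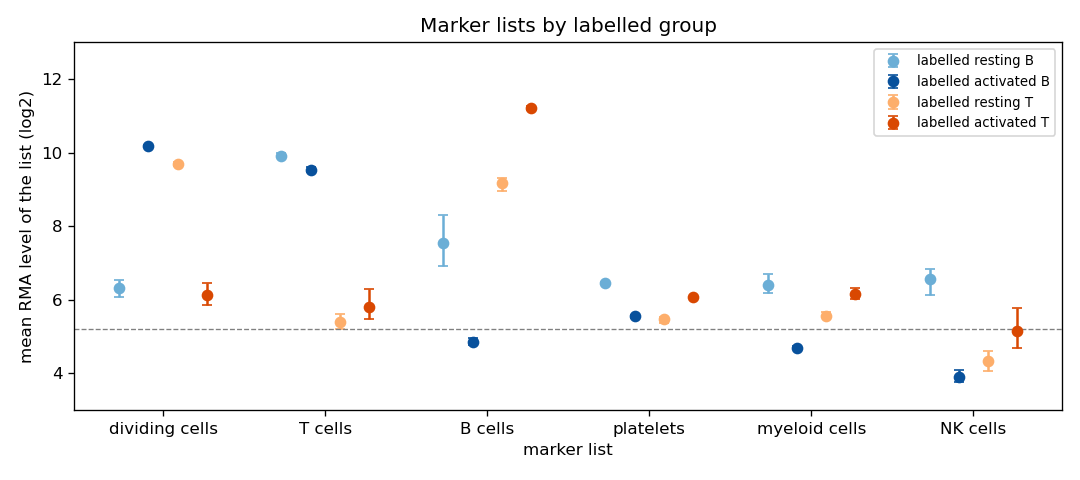
Mean RMA level (log2, y axis) of the markers of dividing cells, T cells, B cells, platelets, myeloid cells and NK cells (x axis) in the 4 labelled groups, with the mean of the 3 arrays as a point, the lowest and highest array as the bar and the background of 5.21 log2 as a dashed line. The division list is high in the aB and rT arrays, and the T cell list in both groups labelled B.

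Rgs2 and Rgs18 were both high in the rB and aT arrays and had means under the background in the other groups. Rgs2, which acts best on αq subunits, was at 8.35, 8.67 and 8.27 log2 in the rB arrays and at 9.14, 8.68 and 8.67 in the aT arrays. In the aB arrays it was at 4.63, 4.76 and 4.71 log2, and in the rT arrays at 4.91, 4.98 and 4.75. The high and the low groups lay more than 3 log2 apart with no array between them. The difference was -3.73 log2 (standard error 0.13), or 13.3-fold lower, in the aB against the rB arrays, and 3.95 log2, or 15.5-fold higher, in the aT against the rT arrays. Its interaction was -7.68 log2, the 25th largest in size of 19937 genes. Within the high groups the rB arrays were 0.40 log2 lower than the aT arrays, and the low groups overlapped.

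The start of Rgs2 lies on mouse chromosome 1, and the 250 bases before it are shown because this gene had the widest range of group means among the members (RefSeq, build GRCm38.p6, chr1:144004150-144004399, minus strand). Capitals mark matches, on either strand, to the letters searched, which were the GC box GGGCGG, the cyclic AMP element TGACGTCA and its core TGACG, the AP-1 site TGANTCA, the NFAT core GGAAA, the STAT site TTCNNNGAA, the E box CACGTG, the forkhead site GTAAACA and the TATA box TATAAA.
Rgs2: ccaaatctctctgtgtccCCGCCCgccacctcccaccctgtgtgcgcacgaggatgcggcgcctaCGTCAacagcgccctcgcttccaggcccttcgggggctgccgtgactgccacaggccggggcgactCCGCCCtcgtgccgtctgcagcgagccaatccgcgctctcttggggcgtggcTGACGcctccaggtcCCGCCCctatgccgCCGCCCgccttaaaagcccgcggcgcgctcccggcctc
The window held 4 GC boxes, the nearest at positions -38 to -33 from the start (the base before the start is -1), and 2 cores of the cyclic AMP element, at -185 to -181 and -67 to -63. A GC box was found in 32.7% and the core in 17.8% of 32851 promoter windows of this length, and 72.4% of the Rgs2 window were G or C against a median of 52.4%. The other 7 sets of letters had no match in it. A match is a run of letters and was not tested as a binding site.

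Rgs18, a regulator that is abundant in platelets and their precursors, was at 5.53, 6.31 and 6.22 log2 in the rB arrays and at 6.47, 6.40 and 6.25 in the aT arrays. It was at 3.11, 3.30 and 3.50 log2 in the aB arrays and at 3.72, 3.55 and 3.36 in the rT arrays. Every array of the first 2 groups was above the background and every array of the other 2 below it. The difference was -2.71 log2, or 6.57-fold lower, in the aB against the rB arrays (adjusted p = 1.4e-09 from limma) and 2.83 log2, or 7.12-fold higher, in the aT against the rT arrays (adjusted p = 8.6e-10), each with a standard error of 0.17. The rB and aT arrays did not pass the test (-0.35 log2, adjusted p = 0.194 from limma), nor did the aB and rT arrays (-0.23 log2, adjusted p = 0.41).

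The mean levels of the platelet, myeloid and NK cell lists were also higher in the rB and aT arrays than in the others, and those of the division genes lower. Of 7 platelet genes, 6 and 5 were above the background in the rB and aT arrays and 3 in each of the other groups. The mean of the list was 6.44 to 6.47 and 6.06 to 6.09 log2 in the former groups and 5.52 to 5.59 and 5.36 to 5.54 in the aB and rT arrays. Ppbp, a chemokine gene of platelets, was at 8.49, 4.66, 4.76 and 7.43 log2 in the rB, aB, rT and aT arrays, while the platelet factor gene Pf4 was above the background in the rB arrays alone (5.51). Itgb3, an integrin chain that is not particular to platelets, was highest in the aB arrays (9.22). Of 10 myeloid genes, 7, 2, 5 and 7 were above the background in the same order, and Lyz2, which encodes lysozyme, was at 8.29, 4.38, 5.79 and 7.24 log2. The mean of that list was 6.20 to 6.70, 4.66 to 4.74, 5.53 to 5.66 and 6.01 to 6.32 log2, and its members did not all follow it, as Cd68 was highest in the rT arrays (7.45) and Mpeg1 was at 8.37 there against 8.26 in the rB arrays. Of 5 NK cell genes, 4, 1, 1 and 3 were above the background, and their mean was 6.14 to 6.82, 3.76 to 4.08, 4.06 to 4.61 and 4.69 to 5.77 log2. The part of these cells and of division in the values of Rgs2 and Rgs18 was not tested, and in these bulk samples fewer cells of a type and less RNA per cell cannot be told apart.

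**Figure D2:**
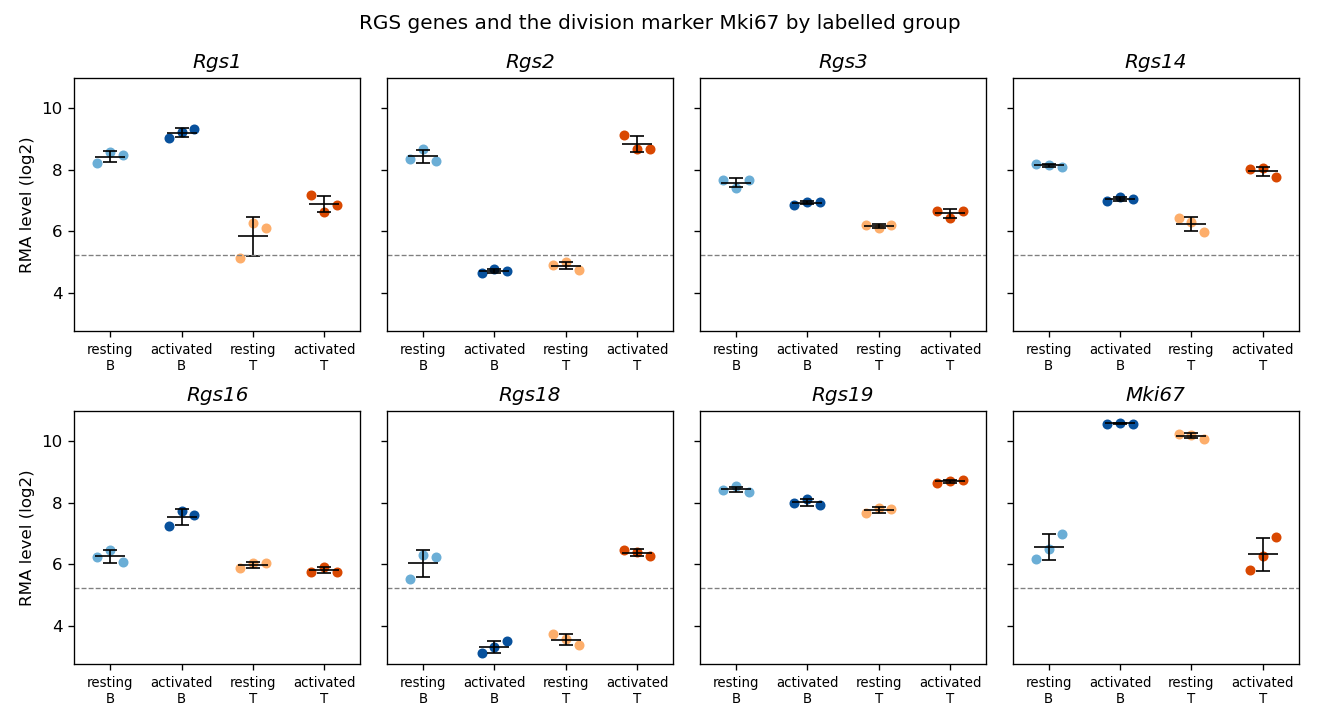
RMA levels (log2, y axis) of the 7 RGS genes and of the division marker Mki67 in the 4 labelled groups (x axis), each array being a point, with bars for group mean and SD and with the background of 5.21 log2 as a dashed line. Rgs2 and Rgs18 are above the background in the rB and aT arrays only, where Mki67 is lowest.

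Rgs14 and Rgs19 were also higher in the rB and aT arrays than in the aB and rT arrays, and were above the background everywhere. Rgs14, which carries an RGS domain, a GoLoco motif that holds inactive αi subunits and a Ras-binding region, was at 8.19, 8.16 and 8.10 log2 in the rB arrays and at 8.01, 8.04 and 7.77 in the aT arrays. It was at 6.99, 7.12 and 7.04 log2 in the aB arrays and at 6.42, 6.30 and 5.98 in the rT arrays. The aB arrays were thus in the middle, 1.10 log2 below the rB arrays (adjusted p = 6e-07 from limma) and 0.82 log2 above the rT arrays (adjusted p = 3e-05). Between the 2 higher groups the difference of 0.21 log2 did not pass the test (adjusted p = 0.266 from limma).

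Rgs19, also known as GAIP, acts on αi and αz subunits. Its means were 8.44 ± 0.09 (SD, n = 3), 8.01 ± 0.11, 7.77 ± 0.10 and 8.70 ± 0.05 log2 in the rB, aB, rT and aT arrays. It was 0.43 log2 lower in the aB arrays than in the rB arrays (adjusted p = 0.00141 from limma) and 0.93 log2 higher in the aT arrays than in the rT arrays (adjusted p = 4.9e-07). The neighbours in this order, rB with aT and aB with rT, differed by -0.26 and 0.25 log2 and did not pass the test (adjusted p = 0.0667 and 0.0725 from limma), although their arrays did not overlap. Both differences passed with dim genes left out (adjusted p = 0.036 and 0.0393 from limma).

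Rgs1 separated the labelled cell types. This regulator damps chemokine responses of B and T cells through αi subunits. It was at 8.21, 8.57 and 8.48 log2 in the rB arrays and at 9.05, 9.23 and 9.33 in the aB arrays, against 5.11, 6.27 and 6.12 in the rT arrays and 7.17, 6.63 and 6.86 in the aT arrays. Every array labelled B was above every array labelled T, and 1 rT array (5.11) was under the background. The difference was 2.59 log2, or 6.01-fold, between the groups labelled resting (adjusted p = 7.1e-08 from limma). Between those labelled activated it was 2.31 log2, or 4.97-fold (adjusted p = 2e-07 from limma). The arrays labelled activated were higher than those labelled resting in both cell types, by 0.78 log2 in B (adjusted p = 0.0106 from limma) and 1.05 log2 in T (adjusted p = 0.00123). The first of these calls was lost without replicate 1 of the rB arrays (0.67 log2, adjusted p = 0.055 from limma). T cell markers were high in the same arrays as Rgs1, and their part in its level was not tested.

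Rgs3, which acts on αi and αq subunits and has long and short forms, was highest in the rB arrays (7.66, 7.41 and 7.65 log2) and lowest in the rT arrays (6.18, 6.10 and 6.21). It was at 6.86, 6.95 and 6.95 log2 in the aB arrays and at 6.67, 6.42 and 6.66 in the aT arrays. None of the groups overlapped, and all 6 differences passed the test, the smallest being 0.34 log2 between the labelled activated groups (adjusted p = 0.0108 from limma). That call was lost without replicate 5 of the aT arrays (adjusted p = 0.072 from limma) and with quantile normalization (adjusted p = 0.0642). A second probe set of Rgs3 gave another picture in the labelled B cells. Its means were 6.25, 6.30, 5.32 and 5.91 log2 in the rB, aB, rT and aT arrays. There the labelled B groups differed by 0.06 log2 (adjusted p = 0.696 from limma over all probe sets), against -0.65 log2 (adjusted p = 4.6e-05 from limma) in the first probe set, while the other 5 differences had the same sign and passed the test in both.

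Rgs16 stood out in the aB arrays. This regulator of αi and αq signals is known to be induced in activated lymphocytes. It was at 7.23, 7.74 and 7.60 log2 there, against 6.24, 6.47 and 6.06 in the rB arrays, 5.87, 6.02 and 6.05 in the rT arrays and 5.76, 5.92 and 5.75 in the aT arrays. The first group was above all other arrays, and the rest lay within 1 log2 of each other. It was 1.27 log2, or 2.40-fold, above the rB arrays (standard error 0.13, adjusted p = 6.4e-07 from limma), 1.54 log2 above the rT arrays and 1.72 log2 above the aT arrays. Among the other groups, resting B against resting T (0.28 log2, adjusted p = 0.119 from limma) and activated T against resting T (-0.17 log2, adjusted p = 0.378) did not pass the test. Resting B against activated T passed (0.45 log2, adjusted p = 0.0216 from limma). That call was lost without replicate 2 of the rB arrays (adjusted p = 0.124 from limma) and without replicate 4 or 6 of the aT arrays (0.0719 and 0.072), and resting B against resting T passed without replicate 3 of the rB arrays (adjusted p = 0.0488 from limma).

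Rgs16 also lies on chromosome 1. The same window before its start (chr1:153740103-153740352, plus strand) is shown beside that of Rgs2 since these genes were high in different groups.
Rgs16: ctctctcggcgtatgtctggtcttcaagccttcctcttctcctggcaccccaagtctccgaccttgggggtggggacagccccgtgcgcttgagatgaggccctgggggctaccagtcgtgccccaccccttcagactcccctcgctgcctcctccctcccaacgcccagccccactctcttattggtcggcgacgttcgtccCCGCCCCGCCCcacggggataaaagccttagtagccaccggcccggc
It held 2 GC boxes that share a base, at -47 to -42 and -42 to -37, and no match to the other letters searched. Its share of G and C was 66.4%. In RefSeq's gene order Rgs2, Rgs13, Rgs1, Rgs21 and Rgs18 follow each other on chromosome 1 with no other protein-coding gene between them, and Rgs8 is next to Rgs16. The genes of that run did not share 1 pattern, as Rgs13 and Rgs21 stayed under the background in every group and Rgs1 differed in its order of groups from Rgs2 and Rgs18.

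**Figure D3:**
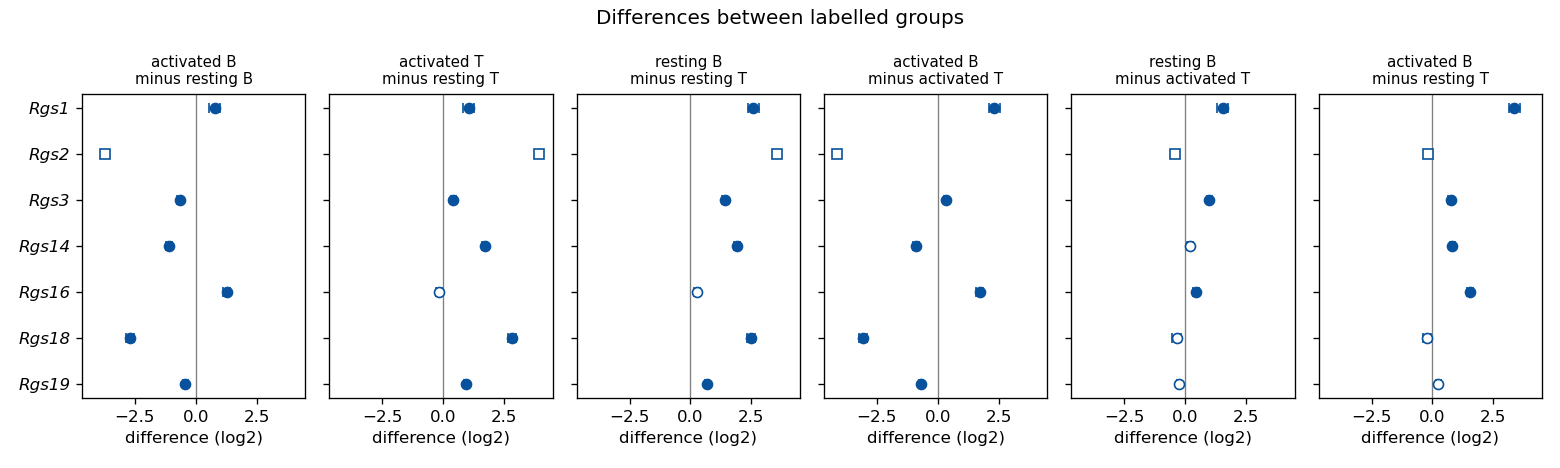
Log2 differences (x axis) of the 7 RGS genes (y axis) in 6 comparisons of labelled groups, with the standard error of limma as bars (often smaller than the symbol). Filled circles passed the test at an adjusted p under 0.05, open circles did not, and the open squares of Rgs2 were not tested. Rgs2 and Rgs18 lie furthest from 0 in activated B minus activated T (-4.13 and -3.07 log2). They are also far from 0 between activated and resting arrays of the same labelled cell type, and in resting B minus resting T. They lie nearest to 0 in resting B minus activated T and activated B minus resting T.

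Over the 6 RGS genes tested, which leaves out Rgs2, all 6 passed between the aB and rB arrays, with 2 higher (Rgs1 and Rgs16) and 4 lower. The second probe set of Rgs3 did not pass here (adjusted p = 0.696 from limma), and Rgs1 lost its call without replicate 1 of the rB arrays. Of all genes, 36.5% passed, 19.7% higher and 16.7% lower. This split of all genes moved with the scaling, as 54.1% of the called genes were higher on the deposited scale and 66.6% with arrays centred on their medians. The median difference of the 6 was -0.54 log2 against -0.02 over all genes. The arrays of the groups did not overlap in 6 of 6, against 46.6% of all genes. Between the aT and rT arrays, 5 of the 6 were higher, none lower and Rgs16 was not called, where 33.7% of all genes passed, 15.9% higher and 17.8% lower (47.3% of the called genes were higher, and 33.9% with median centring). The median was 0.99 log2 against 0.02 over all genes, and 5 of the 6 did not overlap, against 42.3%.

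Between the rB and rT arrays, 5 of the 6 were higher in rB, Rgs16 being the exception. Of all genes 35.1% passed here, 16.1% higher and 19% lower (45.9% of the called genes were higher, and 36.5% with median centring). All 6 were without overlap, against 42.6% of all genes. Between the aB and aT arrays, all 6 passed, 3 higher in aB (Rgs1, Rgs3 and Rgs16) and 3 lower (Rgs14, Rgs18 and Rgs19), where 40.7% of all genes passed, 21.8% higher and 18.9% lower (53.5% of the called genes were higher, and 68.5% with median centring). Again all 6 were without overlap, against 51.1% of all genes.

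The pairs of groups that were alike in division genes had fewer calls, among the 6 genes as over all genes. The part of division in this was not tested. Between the rB and aT arrays, 3 of the 6 passed, Rgs1 (1.54 log2), Rgs3 (0.99 log2) and Rgs16 (0.45 log2), all higher in rB, where 18.5% of all genes passed, 9.68% higher and 8.82% lower. In 5 of the 6 the arrays did not overlap, against 31.3% of all genes. Between the aB and rT arrays, 4 of the 6 passed, Rgs1 (3.37 log2), Rgs16 (1.54 log2), Rgs14 (0.82 log2) and Rgs3 (0.76 log2), all higher in aB, where 23% of all genes passed, 13% higher and 9.93% lower, and 5 of the 6 did not overlap, against 35.2%. These comparisons share groups, and the genes were chosen with results known, so that the counts describe these genes and are no test of the family.

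The other 13 measured genes of the family were mostly under the background. In 10 of them no group mean was above it, among them Rgs4 and Rgs5, known from brain and from pericytes, and Rgs13, known from germinal centre B cells and mast cells, whose highest group mean was 3.51 log2. Rgs12, a relative of Rgs14 with a PDZ domain, was at 5.61, 6.60, 5.90 and 5.23 log2 in the rB, aB, rT and aT arrays. It was 0.99 log2 higher in the aB arrays than in the rB arrays (adjusted p = 2.6e-07 from limma) and 0.67 log2 lower in the aT arrays than in the rT arrays (adjusted p = 2.4e-05), the reverse of Rgs14. Rgs11 was highest in the rB arrays (6.27 log2) and lowest in the aT arrays (5.32 log2), a difference of 0.95 log2 (adjusted p = 2.4e-05 from limma). Rgs9 had group means of 5.10 to 5.57 log2, at or near the background, and its difference of -0.31 log2 between the aT and rT arrays (adjusted p = 0.0318 from limma) was lost with the replicate number as a block (adjusted p = 0.0522 from limma) and without replicate 4 or 5 of the aT arrays or any one of the rT arrays (adjusted p = 0.0556 to 0.135 from limma).

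**Figure D4:**
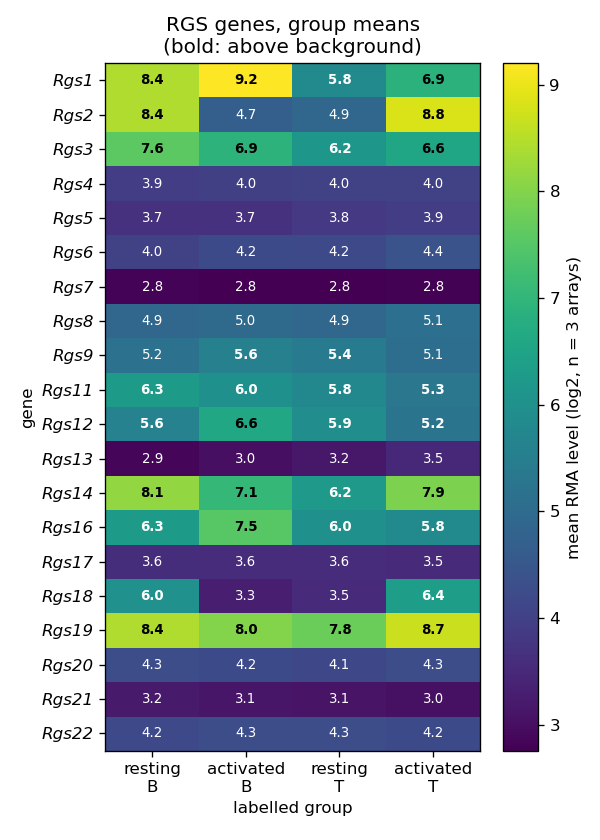
Mean RMA levels (log2, printed and as colour, n = 3 arrays) of the 20 measured RGS genes (y axis) in the 4 labelled groups (x axis), with means above the background of 5.21 log2 in bold. Colours are to be read along a row, since the levels of different probe sets are not on 1 scale, and 10 genes have no mean above the background.

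Other proteins with an RGS domain include the G-protein receptor kinases, the axins and some sorting nexins. Of 14 measured, 9 were lower and 2 higher in the aB arrays than in the rB arrays, and 9 were higher and none lower in the aT arrays than in the rT arrays. Of all genes, 16.7% were lower in the former comparison and 15.9% higher in the latter. The medians were -0.55 and 0.55 log2, against -0.02 and 0.02 over all genes. Grk3, a kinase that turns off receptors, was at 5.90, 4.78, 4.87 and 6.47 log2 in the rB, aB, rT and aT arrays. Axin2, a scaffold and target of Wnt signalling, was highest in the rB arrays (6.83 log2) and under or near the background in both groups labelled T (5.09 and 5.25).

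Of 12 measured α subunits, on which RGS proteins act, 5 were higher and none lower in the aB arrays than in the rB arrays. This share of calls is near the 36.5% of all genes that passed. Of the 5, Gnai1 was under the background in every group (4.30 and 4.87 log2 in the rB and aB arrays). In the aT arrays 2 were lower and none higher than in the rT arrays, where 33.7% of all genes passed. Gnai2, the main αi subunit of lymphocytes, was at 10.34, 10.48, 10.44 and 10.49 log2 in the 4 labelled groups and passed in none of the 6 comparisons, with a largest difference of -0.15 log2. Gnai3 was highest in the aB arrays (10.20 log2), 0.44 log2 above the rB arrays (adjusted p = 0.00146 from limma). Gna13, which helps to confine germinal centre B cells to follicles, was also highest there, 0.62 log2 above the rB arrays (adjusted p = 1.6e-05 from limma). Gnaq, the α subunit on which Rgs2 acts best, was at 6.57, 7.13, 7.42 and 7.68 log2 in the rB, aB, rT and aT arrays, an order unlike that of Rgs2. Gnaz was above the background in the rT arrays alone (6.27 log2), and Gna15, the promiscuous α subunit of blood cells, was highest there (6.65 log2).

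Among 17 measured β and γ subunits, 6 were higher and none lower in the aB arrays than in the rB arrays, a share near the 36.5% of all genes, and with quantile normalization 2 were called. Between the labelled T groups 1 was higher and 4 lower in the aT than in the rT arrays, where 33.7% of all genes passed. Gnb4 was at 9.49 log2 in the rT arrays, against 6.76 and 6.78 in the rB and aB arrays and 5.60 in the aT arrays, a difference of -3.89 log2 between the labelled T groups (adjusted p = 4e-13 from limma). Gng12 was also highest in the rT arrays (9.20 log2) and 2.49 log2 lower in the aT arrays (adjusted p = 3.7e-11 from limma). Gngt2, a γ subunit known from cones, had its highest mean in the aT arrays (7.54 log2) and its lowest in the rB arrays (6.36 log2). A further list of 8 genes held GoLoco and Ric8 genes, whose proteins hold or fold α subunits. It also held Rgs7bp and Rgs9bp, whose proteins bind RGS proteins. Of these 8 genes, 1 was higher and 3 lower in the aB arrays than in the rB arrays. In the aT arrays 3 were higher and 1 lower than in the rT arrays. Of all genes the same 36.5% and 33.7% passed. Gpsm2, a GoLoco protein that orients the mitotic spindle, was at 5.97, 7.23, 6.06 and 4.64 log2 in the rB, aB, rT and aT arrays. Ric8b, a chaperone of α subunits, ran the other way, 1.03 log2 lower in the aB arrays (adjusted p = 1.1e-07 from limma) and 0.72 log2 higher in the aT arrays (adjusted p = 7.5e-06), and Gpsm3, a GoLoco protein of blood cells, had the same signs (-0.50 and 0.40 log2, the latter with an adjusted p of 0.00978 from limma, and 0.0614 without replicate 6 of the aT arrays).

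Of 20 measured G-protein-coupled receptors of lymphocytes, 10 were lower and 4 higher in the aB arrays than in the rB arrays, and 13 were higher and 3 lower in the aT arrays than in the rT arrays. Of all genes 36.5% and 33.7% passed in these comparisons, and the medians of the receptors were -0.47 and 1.13 log2 against -0.02 and 0.02. S1pr1, the sphingosine-phosphate receptor for exit into blood and lymph, was at 10.91, 7.93, 6.38 and 10.83 log2 in the rB, aB, rT and aT arrays. Its 2 high groups were those in which Rgs2 and Rgs18 were high, and they differed by 0.08 log2 (adjusted p = 0.705 from limma). Ccr9, a gut-homing receptor, was high in the rB arrays only (8.60 log2). Cxcr5, the receptor for B cell follicles, was at 8.27 and 9.38 log2 in the rT and aT arrays and at 5.83 and 4.07 in the rB and aB arrays.

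**Figure D5:**
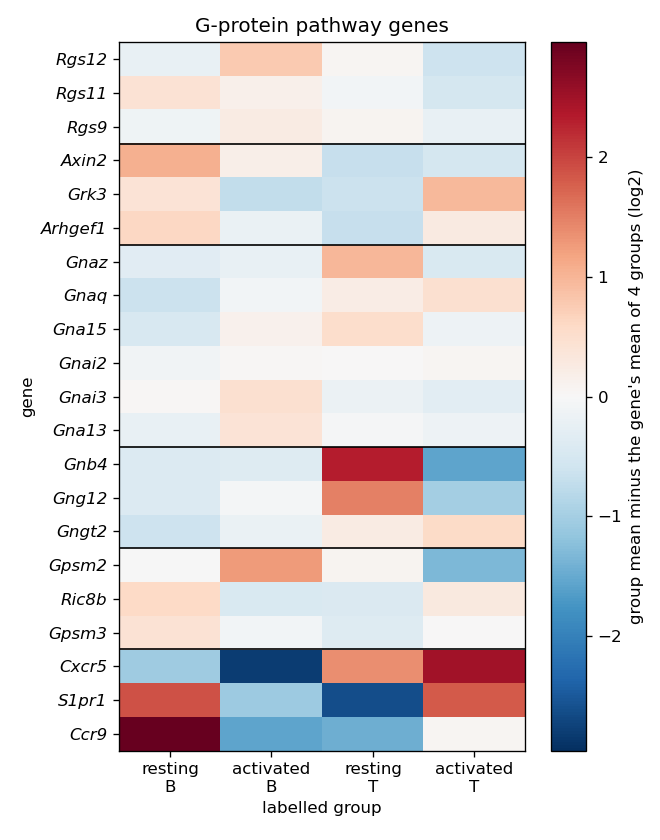
Group means of 21 genes of the G-protein pathway (y axis) in the 4 labelled groups (x axis), as the log2 difference from the mean of the gene's 4 groups in colour, with lines between RGS genes, other RGS-domain genes, α subunits, β and γ subunits, GoLoco and Ric8 genes and receptors. Gnai2 is nearly white in all groups, while Gnb4 is highest in the rT arrays and S1pr1 in the rB and aT arrays.

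The levels of the members were compared over the 12 arrays, which fall into 4 groups, so that these correlations describe group patterns. Rgs2 and Rgs18 had a Pearson r of 0.99, Rgs2 and Rgs19 of 0.93, Rgs2 and Rgs14 of 0.89 and Rgs14 and Rgs19 of 0.89. Rgs16 ran apart from this set, with r = -0.56 to Rgs2 and -0.57 to Rgs18, and was nearest to Rgs1 (r = 0.78). Rgs1 and Rgs2 had r = -0.00, and Rgs3 was nearest to Rgs1 and Rgs14 (r = 0.75 and 0.71). The 3 genes most like each member were sought among 12164 genes with a mean above the background. For Rgs2 they were the kinase-like adaptor Nrbp1, Tcp11l2 and the AP-1 subunit Fos (r = 0.996, 0.996 and 0.995), and Fos was at 8.73, 5.28, 5.47 and 8.76 log2 in the rB, aB, rT and aT arrays. For Rgs18 they were Ddx5, Srsf5 and Prpf38b, genes of RNA processing (r = 0.993 to 0.996). A high r does not mean changes of equal size. Ddx5 was at 12.39, 11.38, 11.49 and 12.50 log2 in the rB, aB, rT and aT arrays, a narrower range than that of Rgs18. For Rgs14 they were Sptbn1, Dennd1c and Arhgef18 (r = 0.989 to 0.991), and for Rgs19 the IL-10 receptor chain Il10rb, the kinase Stk17b and Crebl2 (r = 0.979 to 0.985). For Rgs1 they were Slk, Pstpip1 and Wwp1 (r = 0.982 to 0.987), for Rgs3 the syntaxin Stx2, the β-arrestin Arrb2, which binds receptors of this pathway, and Peli1 (r = 0.978 to 0.983), and for Rgs16 Nptn, the polyamine enzyme gene Smox and the protease gene Adam8 (r = 0.981 to 0.990).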

How the data were processed

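RNA of 12 samples was measured on Affymetrix arrays. The deposited table gives a log2 level for each probe set, credited to RMA in the submitters' processing notes; its version is not given in the sources used here. Array medians lay between 5.50 and 5.68 log2. Arrays hold no read depth, and their number limits the precision.

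Of 34760 probe sets, 21640 carried a single gene symbol, 1321 several and 11799 none that is named here. Entrez identifiers of 21553 matched RefSeq (GRCm38.p6) and changed 0 symbols. Symbols were reduced to 19937 genes by the highest mean, with 954 choices between probe sets. Some genes of the lists are not analysed here.

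Labelled groups were compared with limma 3.58.1 in R 4.3.3 (lmFit, eBayes, 4 group means, 8 residual and 7.8 prior degrees of freedom), in 6 comparisons. P-values are two-sided, with Benjamini-Hochberg adjustment over all genes within a comparison and a threshold of 0.05. The interaction was fitted and is given without a test for the members. The fit was tested on simulated data with known changes. Members and lists were chosen with earlier results of these data known. Named are all members, the 3 genes of each list with the widest range of group means above the background, Gnai2, Gnai3, Gnaq and Gna13, the 3 genes most like each member, and a few markers, of which 1 list gene is not reported here. Rgs4, Rgs5, Rgs8, Rgs13 and Rgs21 were named for their place in the family, after their values were seen, as were Ppbp, Itgb3, Cd68 and Mpeg1 among the markers. Gnai1, Rgs7bp and Rgs9bp of the lists were also named after their values were seen. Figures were drawn in matplotlib 3.10.9 under Python 3.11.15, and tables were joined in pandas 2.3.3 with numpy 2.4.6.

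The labels number the B arrays 1 to 3 and the T arrays 4 to 6 in both states. Once group means were subtracted, arrays of the same number had correlations of r = -0.06, 0.06 and 0.25 in B and 0.22, 0.16 and 0.23 in T over 12164 genes above the background. Arrays of unlike number were not compared, so these values do not show whether the numbers mark pairs. The reported fit has no block. Alternatives were other array scalings, a filter on dim genes, other handling of probe sets, fewer arrays, other variance models, array weights, the block, and each array left out in turn.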

Additional observations from a re-analysis of the deposited data

Results flagged for a closer look

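Some genes of the family moved in opposite directions between activated and resting arrays in the labelled B and T cells, with no overlap of the arrays on either side. The activation difference in the labelled B cells minus that in the labelled T cells was -7.68 log2 for Rgs2, -5.55 for Rgs18, -2.80 for Rgs14, -1.36 for Rgs19 and -1.07 for Rgs3. The second probe set of Rgs3 did not show this, with 0.06 log2 in the labelled B cells and 0.58 log2 in the labelled T cells. For these 5 genes the difference was not tested, since it is the contrast on which Rgs2 was chosen. Outside the members, Rgs12 and Rgs9 ran the other way, with 1.67 and 0.69 log2. Both were picked here for the same lack of overlap, so no test of this difference is given for them. Rgs9 was at or near the background. Its difference between the aB and rB arrays lost its call without replicate 2 of the aB arrays (adjusted p = 0.0621 from limma) or of the rB arrays (0.0648). The markers of division moved in opposite directions too, up from 6.08 to 6.55 log2 in the arrays labelled resting B to 10.16 to 10.21 in those labelled activated B, and down from 9.63 to 9.75 to 5.87 to 6.46 in T, and their part was not tested.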

How the results depend on the processing

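The counts of called members stayed within 1.5 times of those reported under every alternative run, and no member or named gene with a call changed sign. With single arrays left out they were 5 to 6 of 6 (activated against resting B), 5 (activated against resting T), 5 to 6 (resting B against T), 5 to 6 (activated B against T), 2 to 3 (resting B against activated T) and 4 (activated B against resting T). Among the members' differences 3 lost and 1 gained a call in at least 1 fit with an array left out, and 1 lost and 2 gained a call under at least 1 of the other settings. Centring arrays on their medians moved the median of all genes by 0.11, -0.10 and 0.13 log2 in activated against resting B, activated against resting T and activated B against T. It gave interactions of -7.47 log2 for Rgs2, -0.86 for Rgs3, -2.59 for Rgs14, 1.65 for Rgs16 and -1.14 for Rgs19, and quantile normalization gave -1.23 for Rgs3, -2.99 for Rgs14 and -1.57 for Rgs19. With the mean of both probe sets Rgs3 had -0.80. Leaving out single arrays gave -0.49 to 0.09 for Rgs1, -7.76 to -7.53 for Rgs2, -1.15 to -1.03 for Rgs3, -2.90 to -2.68 for Rgs14, 1.33 to 1.58 for Rgs16, -5.79 to -5.40 for Rgs18 and -1.41 to -1.30 for Rgs19, so the sign for Rgs1 rests on single arrays. With the replicate number as a block, 6 and 5 members were called in the labelled B and T cells, as without it, and Rgs9 between the labelled T groups lost its call (adjusted p = 0.0522 from limma). No paired analysis was possible between labelled B and T arrays because they share no number. The causes of these shifts were not tested. Signal over background limits Rgs2 and Rgs18, whose low groups lie under it.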
